A study of Mus musculus with 5 samples.

Results

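Major histocompatibility complex (MHC) class II genes were described in macrophages sorted from the mouse aorta: 10 genes, all found by Ensembl identifier among the 41388 genes of the deposited tables. They are H2-Aa, H2-Ab1, H2-Eb1, H2-Eb2, Cd74, Ciita, H2-DMa, H2-DMb1, H2-DMb2 and H2-Oa. The adventitia group held 3 libraries of live (PI-) CD64+ cells sorted out of the outer coat of entire aortas from ApoE-/- C57BL/6 animals; 6 such mice are named, kept 28 weeks on high-fat food. The intima group held 2 libraries of live CD64+ CD11c+ MHC II+ cells from the thoracic aorta of C57BL/6 mice once the adventitia was stripped away, and each library pooled 5 mice. Both tissues were digested with collagenases and hyaluronidase, and no mouse age, and no diet for the C57BL/6 mice, is given in the sources used here. Layer, genotype, diet as far as it is stated, aortic segment and sort gate cannot be told apart in this comparison. Class II protein itself was a gate in the intima sort and not in the adventitia sort. The labels do not say whether each adventitia library came from separate mice, so the spread behind each p-value is that of these libraries and may be partly technical.

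Class II molecules carry peptides from engulfed material to the cell surface for CD4+ T cells. An alpha and a beta chain pair in the endoplasmic reticulum with the invariant chain, encoded by Cd74, which blocks the peptide groove until proteases trim it in endosomes. The H2-M dimer then exchanges the remaining fragment for peptide, and the H2-O dimer restrains H2-M. Transcription of these genes depends on the transactivator Ciita, which does not bind DNA itself but docks on factors that occupy the X and Y boxes of the promoters. Mice of the C57BL/6 strain carry the b haplotype, which makes the H2-A molecule, from H2-Aa and H2-Ab1, but no H2-E molecule, because the promoter of the H2-E alpha gene is deleted.

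The promoters of the class II genes are shown because the X and Y boxes are the shared feature through which Ciita acts. RefSeq windows (GRCm38.p6) matched 7 of the 10 genes; H2-Ab1, Cd74 and Ciita had no entry. Each window ran from 250 bases before the start site to 50 after it. The search, on both strands, was for the Y box letters TGATTGG, the X box letters AACNGATG and the cyclic AMP response letters TGACGTCA that can stand next to an X box; no searched motif overlapped another in the lines below. In these 70-base stretches, written 5′ to 3′ on the gene's strand, capitals mark the matched letters.
H2-Aa: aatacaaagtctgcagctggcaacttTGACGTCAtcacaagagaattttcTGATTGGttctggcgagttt
H2-Eb1: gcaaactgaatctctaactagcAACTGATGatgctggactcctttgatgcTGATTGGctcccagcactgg
H2-Eb2: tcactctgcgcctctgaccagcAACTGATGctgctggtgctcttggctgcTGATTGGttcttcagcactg
H2-DMb1: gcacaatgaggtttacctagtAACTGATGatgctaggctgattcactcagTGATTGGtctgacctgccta
H2-DMb2: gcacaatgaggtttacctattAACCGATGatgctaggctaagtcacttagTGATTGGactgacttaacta
H2-Oa: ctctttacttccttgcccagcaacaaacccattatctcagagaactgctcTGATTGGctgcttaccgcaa

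All 6 stretches lie on chromosome 17, at chr17:34287854-34287923 on the minus strand for H2-Aa and, on the plus strand, at chr17:34305756-34305825 for H2-Eb1, chr17:34325523-34325592 for H2-Eb2, chr17:34153078-34153147 for H2-DMb1, chr17:34145107-34145176 for H2-DMb2 and chr17:34092284-34092353 for H2-Oa. The Y box letters were in the window of each of these 6 genes and in 7.82% of 32851 promoter windows of the same length. X and Y box letters stood together in H2-Eb1 and H2-Eb2, with 20 bases between them, and in H2-DMb1 and H2-DMb2, with 21 bases between them. Both sets of letters, on either strand and at any distance from each other, were found in 61 of the 32851 windows (0.186%). X box letters alone were in 2.32% of windows and the TGACGTCA letters of H2-Aa in 1.79%. Neither RefSeq start of H2-DMa had any of these letters in its window, and both of those starts lie outside the gene as the deposited table places it. A match is a description of the letters and not of a factor bound there; H2-Eb2, with both boxes, was also the member with the fewest reads.

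The libraries held 3941381 to 10076142 counted reads in the adventitia and 14970204 and 20806925 in the intima. Apoe, the disrupted gene, was at 10.8 to 21.1 CPM (a gene's reads over all counted reads of its library, scaled alike in every library) in adventitia libraries, against 4741 and 4209 CPM in intima libraries. The macrophage list of 13 genes summed to 29179 to 35995 CPM in adventitia libraries, against 28466 and 22548 CPM in intima libraries, so the sorted cell type was marked in all 5 libraries. Fcgr1, which encodes the CD64 of both gates, ranged from 115 to 280 CPM in the adventitia and was at 152 and 139 CPM in the intima. Itgax, which encodes the CD11c of the intima gate, was at 19.5 to 35.2 CPM in adventitia libraries, against 62.5 and 261 CPM in intima libraries. Of 13408 tested genes, edgeR's quasi-likelihood test called 90 (0.671%) at a Benjamini-Hochberg adjusted p under 0.05. The labels name no sequencing batch or date. In bulk RNA, fewer cells of a type and less RNA per cell cannot be told apart.

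Class II transcripts made up a large part of each library, and a smaller part in the adventitia than in the intima. The 10 genes took 2.35, 4.78 and 6.98% of counted reads in adventitia replicates 1, 2 and 3, against 10.6 and 8.22% in the intima libraries. All 3 adventitia libraries lay below both intima libraries. The means were 4.70 ± 2.32% in the adventitia (SD, n = 3) and 9.40 ± 1.67% in the intima (SD, n = 2). On the log2 scale they differed by -1.12, adventitia minus intima as everywhere below. The exact two-sided permutation test gave p = 0.20, in a design whose smallest possible p is 0.1. Adjusted for gene length, as a share of TPM (length-scaled reads), the 10 genes averaged 5.92 ± 2.90% in the adventitia and 14.1 ± 1.08% in the intima.

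**Figure D1:**
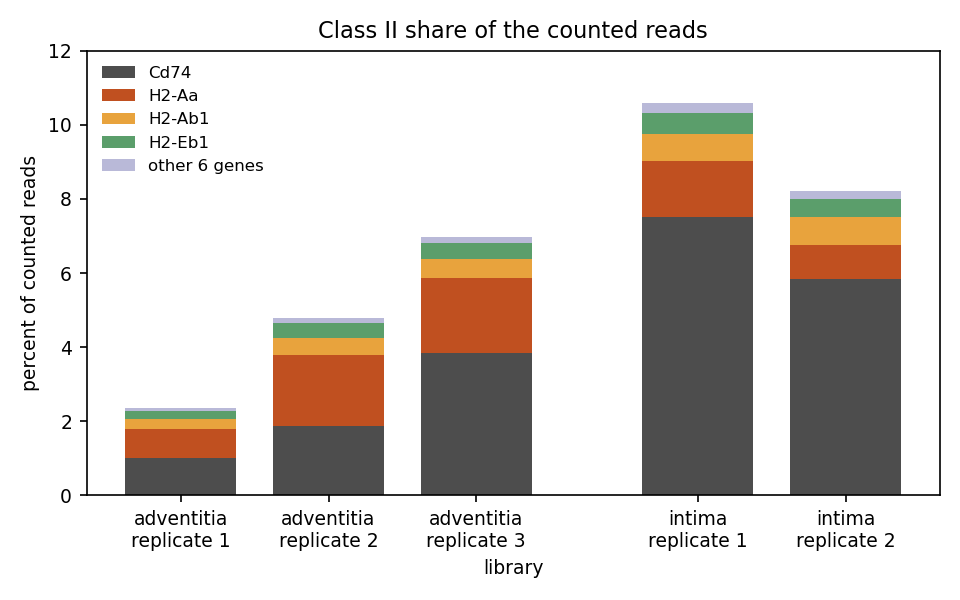
Percent of all counted reads that fell on the class II genes (vertical axis), stacked by gene, for each adventitia and intima library. The bars reach 2.35 to 6.98% in the adventitia and 10.6 and 8.22% in the intima, and the Cd74 part is wider in the intima while the H2-Aa part is not.

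None of the 9 genes that passed the filter on low counts was called between the groups, where 0.671% of all genes were called and 0.522% were called as lower in the adventitia. At an unadjusted p under 0.05 in edgeR there were 3, Cd74, Ciita and H2-DMb1, against 22.4% of all tested genes. DESeq2 called 1 of the 9, Ciita, against 8.8% of all genes (3.64% as lower in the adventitia), and limma voom called 1, Cd74, against 6.26% (1.6% as lower). With no filter on low counts edgeR called 3 of the 10, Cd74, H2-Ab1 and H2-DMb1, all lower in the adventitia, against 1.22% of 31645 genes (0.986% as lower), in a fit whose all-gene median log2 difference was 1.86. The 9 genes had a median log2 difference of -1.46 and 8 of them lay below 0, beside a median of -0.14 over all tested genes. Adventitia and intima CPM ranges did not overlap for 6 of the 9, always with the adventitia below, an arrangement found in 14.1% of tested genes; the adventitia was above the intima in 26.4% of tested genes and in none of the 9. Which of these genes passed the filter depended on their level in either group, so the counts describe 9 of the 10.

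**Figure D2:**
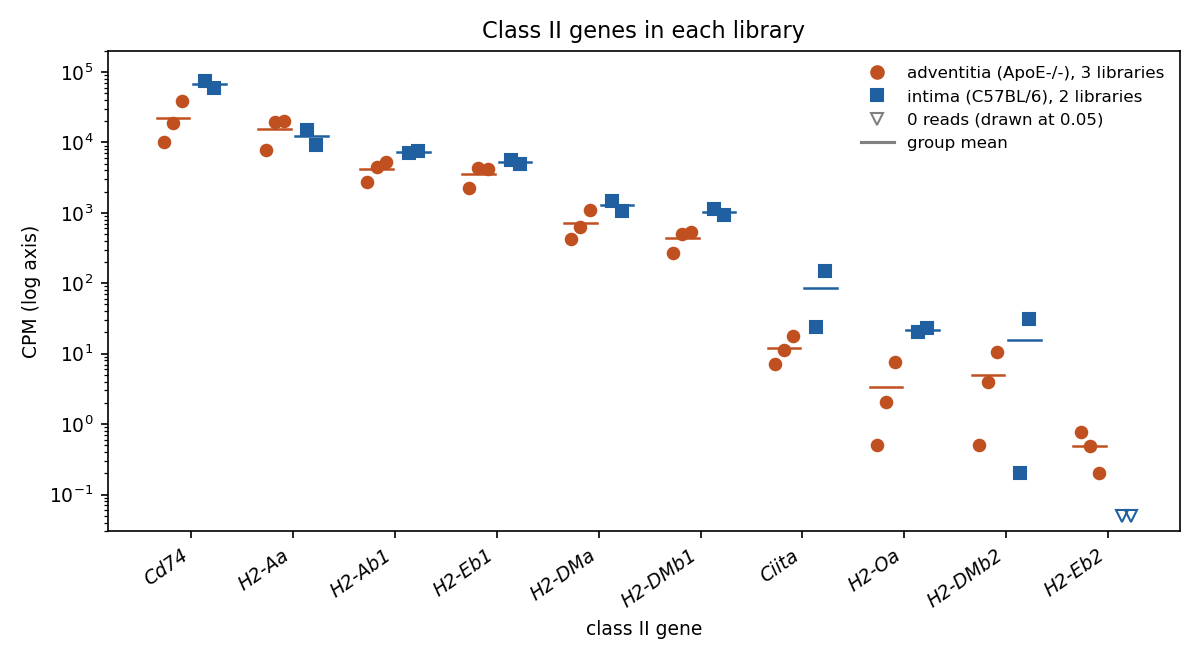
CPM of each class II gene on a log axis, 1 point per library, with adventitia left of intima and the group mean as a line. Cd74 is highest in 4 of 5 libraries and H2-Aa in adventitia replicate 2, H2-Aa overlaps between the groups, and H2-Eb2 has no read in the intima.

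The chains of the peptide-binding molecule differed in their pattern. H2-Aa encodes the alpha chain of H2-A and occupies 34282744 to 34287827 of chromosome 17 (GRCm38). It was measured at 7739, 19296 and 20032 CPM in adventitia replicates 1, 2 and 3, against 15235 and 9132 CPM in intima replicates 1 and 2. The groups overlapped, and the highest libraries were in the adventitia. Adventitia minus intima, H2-Aa gave a log2 difference of 0.14 (SE 0.60, 95% interval -1.17 to 1.45, adjusted p = 0.929 in edgeR), and its sign turned in 4 of 15 alternative settings.

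H2-Ab1 encodes the beta chain that pairs with it and lies on the same chromosome from 34263209 to 34269418. It was at 2730, 4496 and 5346 CPM in adventitia libraries, against 7066 and 7498 CPM in intima libraries. Every adventitia value was below both intima values, which lay within 1.06-fold of each other. The log2 difference was -1.01 (SE 0.48, 95% interval -2.06 to 0.04, adjusted p = 0.240 in edgeR).

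H2-Eb1 encodes the beta chain of H2-E, the molecule that mice of this haplotype do not assemble, and spans 34305877 to 34316199 on chromosome 17. It had fewer reads than H2-Ab1 in every library: 2273, 4264 and 4238 CPM in adventitia libraries, against 5705 and 4891 CPM in intima libraries. Here too the adventitia libraries were all below the intima libraries, and edgeR put the log2 difference at -0.78 (SE 0.48) with an adjusted p of 0.367. Its missing partner gene, listed as H2-Ea-ps in the reference, had 1, 10 and 1 reads in the adventitia and none in the intima, which allows up to 0.200 and 0.144 CPM in intima replicates 1 and 2 at a floor of 3 reads.

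H2-Eb2 encodes a second beta chain of the H2-E type (34325665 to 34340229). Only 3, 5 and 2 reads fell on it in the adventitia and none in the intima. It did not pass the filter on low counts, so it was not tested, and at this depth neither group was shown to express it.

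Cd74, the invariant chain gene, had the most reads of the 10 in 4 of 5 libraries; in adventitia replicate 2 it came after H2-Aa. It was at 10058, 18584 and 38538 CPM in adventitia replicates 1, 2 and 3 and 75101 and 58520 CPM in the intima. The adventitia libraries spread over 3.83-fold and the intima libraries over 1.28-fold, and no adventitia library reached the lower intima value. The log2 difference was -1.78 (SE 0.67, 95% interval -3.26 to -0.30, adjusted p = 0.152 in edgeR). Adjusted p was 0.0418 in limma voom, and over the 15 alternatives the log2 difference kept its sign, from -2.56 to -1.32.

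Within the pool of class II reads the balance of genes was unlike between the groups. Cd74 took 42.8, 38.9 and 55.2% of that pool in the adventitia libraries and 71.0 and 71.2% in the intima libraries. H2-Aa took 32.9, 40.4 and 28.7% in the adventitia and 14.4 and 11.1% in the intima. The shares of H2-Ab1 were closer, at 11.6, 9.41 and 7.65% in the adventitia and 6.68 and 9.12% in the intima. These shares sum to the whole, so a higher share of one gene lowers those of the others.

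Ciita, on chromosome 16 from 10488178 to 10527564, is the transactivator that switches these genes on. It had 28, 114 and 179 reads in adventitia replicates 1, 2 and 3 and 360 and 3119 in intima replicates 1 and 2. That is 7.10, 11.3 and 17.8 CPM in adventitia libraries, against 24.0 and 150 CPM in intima libraries. All adventitia values were below both intima values, while the intima libraries stood 6.23-fold apart, more than for H2-Ab1 or H2-Eb1. For Ciita this was a log2 difference of -2.99 (SE 0.87, 95% interval -4.89 to -1.09, adjusted p = 0.107 in edgeR). Without intima replicate 2 it was -1.36 (adjusted p = 0.378) and without intima replicate 1 it was -3.61 (adjusted p = 0.0379), both in edgeR. Of its exonic bases, 2.11% overlap Dexi on the opposite strand, whose reads cannot be separated without a stated strand setting.

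The peptide-editing dimer H2-M is made of an alpha chain from H2-DMa and a beta chain from H2-DMb1 or H2-DMb2, 3 genes between 34135182 and 34160230 on chromosome 17. H2-DMa was at 420, 624 and 1111 CPM in adventitia libraries, against 1491 and 1060 CPM in intima libraries. Adventitia replicate 3 lay inside the intima range and the other adventitia libraries below it (log2 difference -1.05, SE 0.50, adjusted p = 0.246 in edgeR). Of the 50-base stretches of H2-DMa transcripts, 8.43% also occur in those of another gene, Brd2. H2-DMb1 was at 271, 500 and 541 CPM in adventitia libraries, against 1140 and 927 CPM in intima libraries. Its groups did not overlap, and its interval lay below 0 without passing over all genes (log2 difference -1.46, SE 0.45, 95% interval -2.46 to -0.46, adjusted p = 0.113 in edgeR).

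H2-DMb2, the neighbouring copy, was uneven within both groups. It had 2, 40 and 105 reads in the adventitia and 3 and 653 in the intima, or 0.507, 3.97 and 10.4 CPM in adventitia libraries, against 0.200 and 31.4 CPM in intima libraries. Intima replicate 1 was the lowest of the 5 libraries and intima replicate 2 the highest. The log2 difference of -1.74 had an SE of 1.85 (adjusted p = 0.644 in edgeR) and became 4.24 without intima replicate 2. As a share of the reads on both beta chain genes, H2-DMb2 took 0.187, 0.788 and 1.89% in the adventitia and 0.0176 and 3.28% in the intima. The exact 95% binomial interval was 0.00362 to 0.0513% in intima replicate 1 and 3.03 to 3.53% in intima replicate 2, so these libraries differed by more than counting error. Of the stretches of 50 bases, the read length, in H2-DMb1 transcripts, 22.7% also occur in those of another gene, H2-DMb2. In H2-DMb2 transcripts 25.9% also occur in other genes, H2-DMb1 among them. H2-DMb1 had 11552 reads in the adventitia and 36350 in the intima, against 147 and 656 for H2-DMb2. A small part of the H2-DMb1 reads placed on H2-DMb2 would thus weigh heavily there, and these percentages do not bound the error of its counts, share or ratio.

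H2-Oa encodes the alpha chain of H2-O, best known from B cells, and spans 34092340 to 34095234. It had 2, 21 and 76 reads in the adventitia and 300 and 482 in the intima, or 0.507, 2.08 and 7.56 CPM in adventitia libraries, against 20.0 and 23.2 CPM in intima libraries. The adventitia libraries were spread over 14.9-fold and all lay below the intima libraries, which were 1.16-fold apart. The log2 difference was -2.82 (SE 1.48, adjusted p = 0.286 in edgeR), and 15.2% of its exonic bases overlap BC051537 on the opposite strand. Its partner gene H2-Ob, outside the 10, was at 30.4, 6.25 and 28.7 CPM in adventitia libraries, against 71.5 and 51.9 CPM in intima libraries, also without overlap (log2 difference -1.76, SE 0.82, adjusted p = 0.230 in edgeR).

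**Figure D3:**
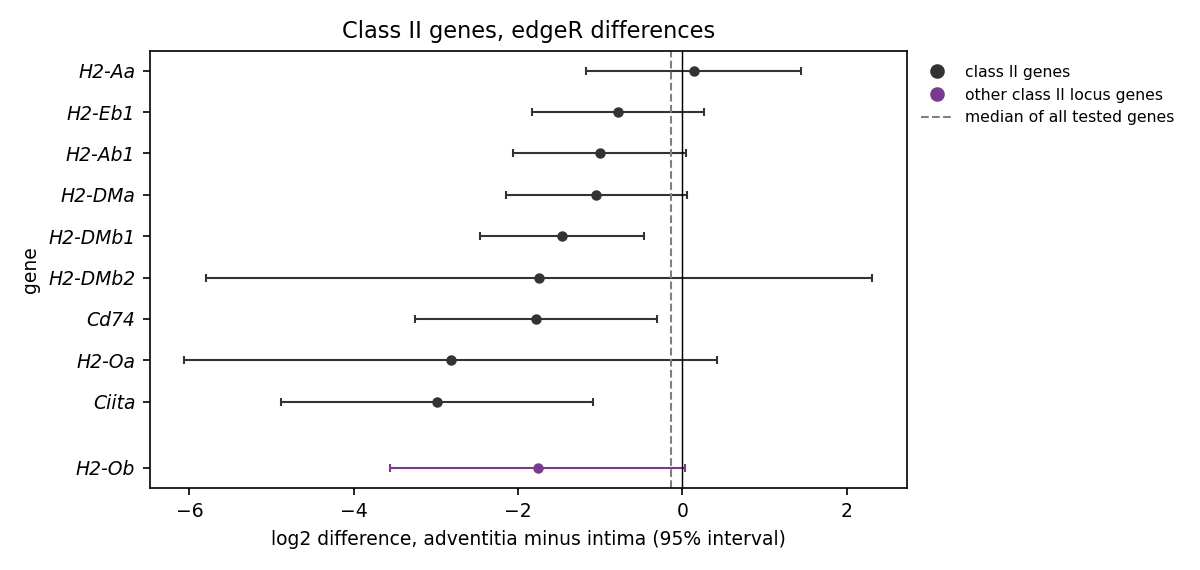
Log2 difference, adventitia minus intima, of the 9 tested class II genes and of H2-Ob with 95% intervals from the edgeR fit; the dashed line is the median of all tested genes at -0.14. H2-Aa is the 1 gene above 0, at 0.14, and Ciita is farthest below it, at -2.99.

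Per kilobase of transcript the order of the levels was nearly the same in the 5 libraries. Cd74 came first and H2-Aa second in every library, with H2-DMa and H2-DMb1 next after the chain genes. Mean RPKM (CPM per kilobase) in the adventitia was 15882 for Cd74, 8372 for H2-Aa, 3033 for H2-Eb1 and 2560 for H2-Ab1, then 438 for H2-DMa and 295 for H2-DMb1. In the intima it was 47383 for Cd74, 6501 for H2-Aa, 4475 for H2-Eb1 and 4448 for H2-Ab1, then 777 for H2-DMa and 696 for H2-DMb1. H2-Eb1 exceeded H2-Ab1 in 3 of 3 adventitia libraries, by 1.18-fold on the means, and in 1 of 2 intima libraries, so these neighbours did not differ beyond their spread. Cd74 exceeded H2-Aa in each library, but the ranges of the 2 genes overlapped across the adventitia libraries and were apart in the intima. H2-DMb2, H2-Oa and Ciita exchanged places between libraries, below H2-DMb1 in all of them and above H2-Eb2 in all but adventitia replicate 1.

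Ratios between genes of 1 library do not depend on how libraries are scaled, and 9 were compared with 0.5 reads added to each gene. The alpha to beta ratio of H2-A, H2-Aa over H2-Ab1 per kilobase, was 2.48, 3.75 and 3.27 in the adventitia libraries and 1.88 and 1.06 in the intima libraries. The adventitia was above the intima in every library, with geometric means of 3.12 in the adventitia and 1.42 in the intima. The log2 difference was 1.14 (adventitia SD 0.31, n = 3; intima SD 0.58, n = 2), with p = 0.1 in the exact two-sided permutation test, the smallest it can give, and 0.30 after adjustment over the 9 ratios. Leaving out 1 library at a time kept it between 0.73 and 1.55. Hardly any of the 50-base stretches of H2-Aa (0.514%) and none of those of H2-Ab1 (0 of 2659) occur in another gene.

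Against the same beta chain, the invariant chain had the opposite order. Cd74 over H2-Ab1 was 4.28, 4.80 and 8.37 in the adventitia and 12.3 and 9.06 in the intima, without overlap. The log2 difference was -0.93 with an exact permutation p of 0.20. By contrast, both beta chains kept close step: H2-Eb1 over H2-Ab1 was 1.15, 1.31 and 1.10 in the adventitia and 1.12 and 0.902 in the intima, overlapping between the groups (log2 difference 0.24, exact permutation p = 0.30).

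H2-DMa over H2-Ab1 sets 1 chain gene of the editing dimer against 1 of the molecule it edits. It was 0.153, 0.138 and 0.207 in the adventitia and 0.210 and 0.141 in the intima. These groups overlapped almost fully (log2 difference -0.07, exact permutation p = 0.70). H2-DMa over H2-DMb1 was 1.401, 1.13 and 1.86 in the adventitia and 1.18 and 1.04 in the intima, also with overlap (exact permutation p = 0.30). For H2-DMb2 over H2-DMb1 the intima libraries enclosed all 3 adventitia values.

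Ciita over H2-Ab1 was 8.25e-04, 7.87e-04 and 0.00104 in the adventitia, a narrow range, and 0.00106 and 0.00623 in the intima. The adventitia lay below the intima by a small margin at intima replicate 1 and a wide one at replicate 2 (log2 difference -1.55, exact permutation p = 0.1, 0.30 adjusted), and the difference was -0.27 without intima replicate 2. H2-Oa over H2-DMa sets the alpha chain gene of the restraining dimer against that of the editing one. It was 0.00189, 0.00427 and 0.00855 in the adventitia and 0.0168 and 0.0273 in the intima, without overlap (log2 difference -2.39, exact permutation p = 0.20). The partner gene H2-Ob had a smaller log2 difference than H2-Oa in edgeR (-1.76 against -2.82), and no ratio was computed with it. H2-Eb2 over H2-Eb1 is not given as a value, since H2-Eb2 had no read in the intima and the ratio there would rest on the 0.5 reads added.

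**Figure D4:**
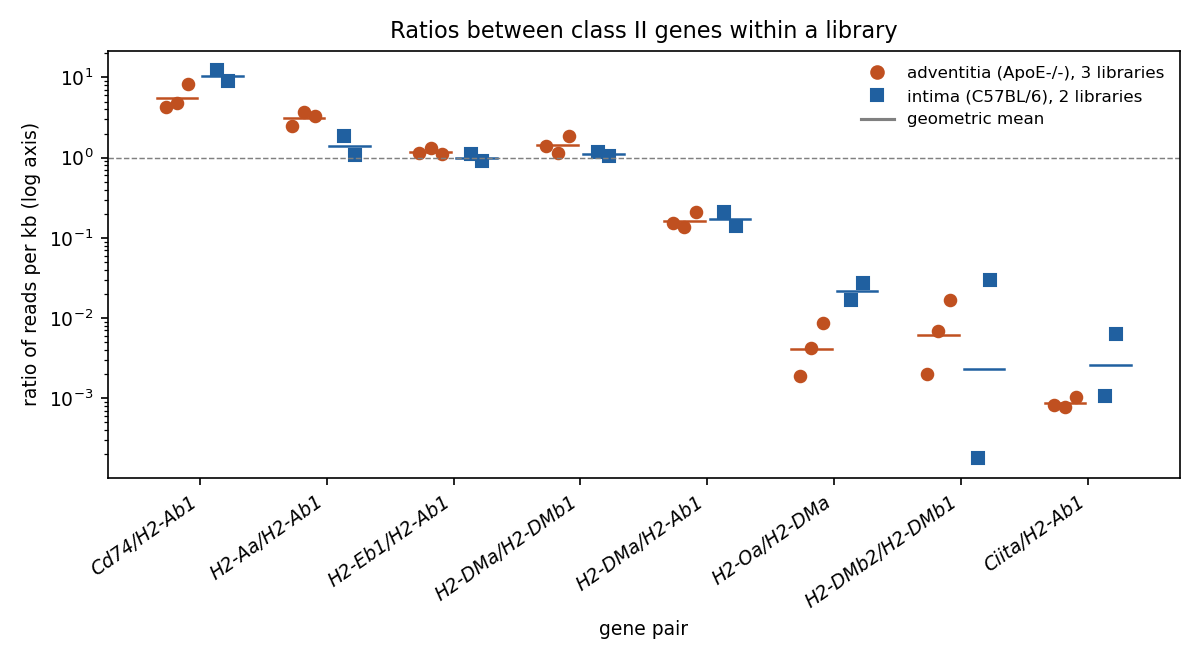
Ratios of reads per kilobase between pairs of class II genes on a log axis, 1 point per library, with adventitia left of intima and the geometric mean as a line. H2-Aa/H2-Ab1 lies between 2.48 and 3.75 in the adventitia and at 1.88 and 1.06 in the intima, while H2-Eb1/H2-Ab1 and H2-DMa/H2-Ab1 overlap.

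Genes that act around the class II molecules did not follow a single direction. Of 18 tested regulators of class II transcription none was called, where 0.671% of all tested genes were called. Of the 18, 8 lay above 0 and 10 below, beside 6247 and 7161 of all tested genes, with a median log2 difference of -0.23. Rfxap and Rfx5, subunits of the complex that binds the X box, were near the detection limit in some libraries: Rfxap had 29, 51 and 174 reads in the adventitia and 7 and 0 in the intima, and Rfx5 had 3, 67 and 14 reads in the adventitia and 345 and 0 in the intima. Rfxap was thus higher in every adventitia library, and Rfx5 had its highest value and its only 0 in the intima. Their log2 differences were 5.11 (SE 2.30, adjusted p = 0.217 in edgeR) and -2.25 (SE 2.12, adjusted p = 0.594 in edgeR). Prdm1, which encodes a repressor that can silence Ciita, was at 5.58, 15.2 and 20.7 CPM in adventitia libraries, against 49.6 and 44.4 CPM in intima libraries, without overlap and without passing (log2 difference -1.96, adjusted p = 0.228 in edgeR).

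Among 10 tested genes of peptide and invariant chain processing none was called, against 0.671% of all tested genes. Their median log2 difference was -0.73, with 6 below 0. Ctsd, the lysosomal protease cathepsin D, was at 446, 373 and 698 CPM in adventitia libraries, against 715 and 1707 CPM in intima libraries (log2 difference -1.45, adjusted p = 0.116 in edgeR). Ctsz, cathepsin Z, was at 442, 542 and 747 CPM in adventitia libraries, against 1059 and 1578 CPM in intima libraries (log2 difference -1.39, adjusted p = 0.113 in edgeR). Ifi30, the thiol reductase that opens disulfide bonds of antigens, had the opposite order. It was at 220, 238 and 155 CPM in adventitia libraries, against 90.8 and 52.5 CPM in intima libraries (log2 difference 1.25, adjusted p = 0.174 in edgeR).

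Of 6 tested genes of class II surface turnover none was called, against 0.671% of all tested genes, and 3 lay above 0. Cd82, a tetraspanin found with class II molecules, was at 38.3, 59.8 and 42.8 CPM in adventitia libraries, against 143 and 177 CPM in intima libraries (log2 difference -1.99, SE 0.51, adjusted p = 0.0875 in edgeR). Marchf1, the ubiquitin ligase that removes class II molecules from the surface, was at 158, 218 and 161 CPM in adventitia libraries, against 101 and 71.9 CPM in intima libraries. Its groups did not overlap, with the adventitia above (log2 difference 0.80, adjusted p = 0.363 in edgeR). Cd63, another tetraspanin, overlapped between the groups (log2 difference -0.38).

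**Figure D5:**
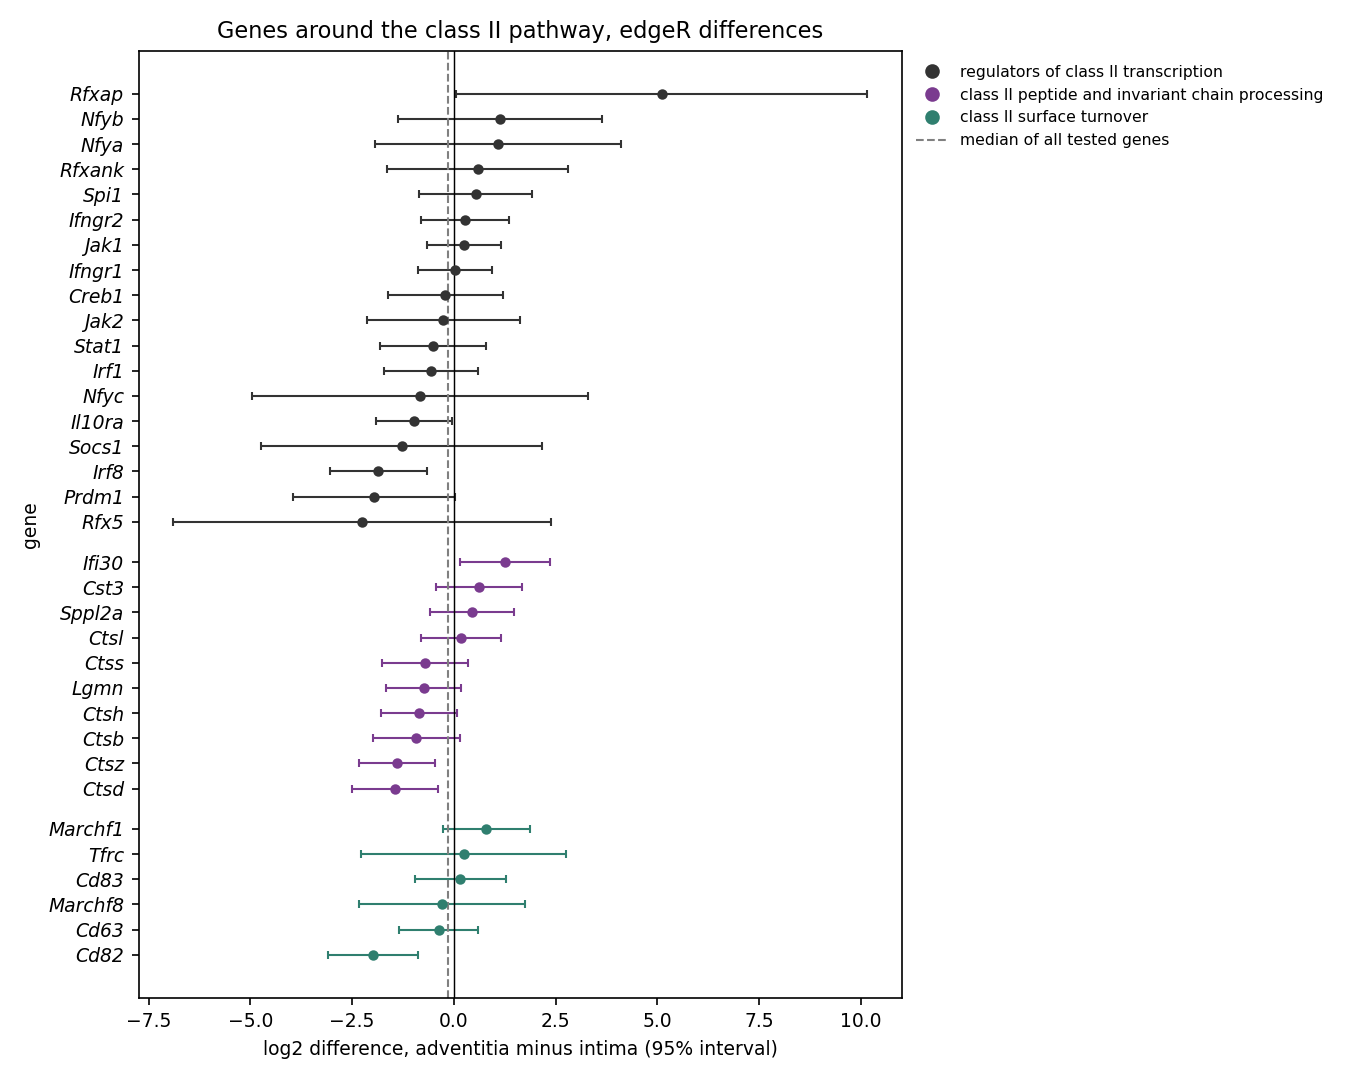
Log2 differences, adventitia minus intima, with 95% intervals from the edgeR fit for 34 tested genes around the class II pathway, in 3 groups by role. The medians of the groups are -0.23, -0.73 and -0.07, and no gene of the 34 was called, where 0.671% of all tested genes were called.

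Genes outside the 10 were ranked by how closely their profile over the 5 libraries followed the mean profile of H2-Aa, H2-Ab1, H2-Eb1 and Cd74. The measure was the Euclidean distance of centred log2 CPM after TMM scaling, with a small count added. Of 6481 genes compared, the nearest were Phip, Spcs2, Tm7sf3, Pip5k1a, Cmtm7, Sdhd, Rit1 and Brd3, at distances of 0.20 to 0.31, beside a median distance of 2.12. Phip, for example, was at 59.9, 107 and 126 CPM in adventitia libraries, against 157 and 136 CPM in intima libraries. Among the class II genes themselves H2-Eb1 (0.34), H2-Ab1 (0.39), H2-DMa (0.44) and H2-DMb1 (0.65) were near that profile, H2-Aa (1.197) and Cd74 (1.27) farther, and Ciita (2.77), H2-Oa (3.16) and H2-DMb2 (5.21) farther than the median gene. H2-Aa, H2-Ab1, H2-Eb1 and Cd74 formed the mean profile, so their own distances only describe their spread around it.

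Markers of other cells that carry class II were present in both groups. The 11 B cell markers with a row summed to 251 to 778 CPM in adventitia libraries, against 974.8 and 914 CPM in intima libraries, most of it from Ighm, at 230, 398 and 736 CPM in adventitia libraries, against 939 and 861 CPM in intima libraries. Ms4a1 and Cr2, other markers of that list, had no read in the intima. The 12 markers of conventional dendritic cells summed to 794 to 923 CPM in adventitia libraries, against 573 and 497 CPM in intima libraries, with Xcr1 and Ccl17 at 0 reads in the intima. Most of these sums was Sirpa, which overlapped between the groups at 443 to 564 CPM in adventitia libraries, against 496 and 408 CPM in intima libraries, and in the adventitia also Cd209a, at 258, 201 and 388 CPM, against 0.468 and 0.384 CPM in the intima. Of the 12 ranges, 6 had the adventitia above, 2 below (Clec9a and Cd24a) and 4 overlapped. Over all tested genes 26.4% had the adventitia above and 14.1% below. Among the 6, Flt3, Itgae and Xcr1 had only 37, 26 and 61 reads over the adventitia libraries. Zbtb46, a defining factor of these cells, was at 2.03, 2.08 and 12.3 CPM in adventitia libraries, against 0.134 and 0 CPM in intima libraries, and Cd209a was the 1 called gene of the list, higher in the adventitia (0.149% of tested genes were called in that direction). The 6 plasmacytoid dendritic cell markers summed to 441 to 692 CPM in adventitia libraries, against 363 and 293 CPM in intima libraries. Ly6d and Klk1 had 0 reads in the intima, but only 6 and 5 over the adventitia libraries. Most of these sums was Tcf4, at means of 360 CPM in the adventitia and 125 CPM in the intima, and Bst2, at 152 and 178 CPM. Bst2, Siglech and Ccr9 overlapped between the groups. Ccr9 averaged 0.552 CPM in the adventitia and 6.25 CPM in the intima, and Siglech ran from 0.0481 to 37.6 CPM within the intima.

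Markers of cells that usually lack class II were uneven between the groups too. The 8 endothelial markers summed to 31.6 to 49.5 CPM in adventitia libraries, against 690 and 811 CPM in intima libraries. Of their ranges, 7 had the adventitia below and 1, Kdr, above, at means of 1.65 CPM in the adventitia and 0.124 CPM in the intima. Over all tested genes 14.1% had the adventitia below and 26.4% above. The 6 smooth muscle markers summed to 2.48 to 9.39 CPM in adventitia libraries, against 264 and 76.9 CPM in intima libraries. The smooth muscle sum in the intima was mostly Acta2 and Tagln, while Myh11 and Des, at low levels, had the adventitia above the intima. The 10 T and NK cell markers summed to 8.34 to 12.5 CPM in adventitia libraries, against 110 and 96.1 CPM in intima libraries. Nkg7 and Klrb1c had no read in the intima, but only 3 each over the adventitia libraries. In intima replicate 1 nearly all of the T and NK cell sum was Cd4, at 109 CPM, with Cd3e, Cd3g and Trac at 0 reads. Intima replicate 2 had Cd4 at 37.5 CPM, Cd3e at 11.7 CPM and Trac at 8.41 CPM. The 6 fibroblast markers summed to 617 to 1426 CPM in adventitia libraries, against 267 and 213 CPM in intima libraries. Adventitia replicate 1, the lowest adventitia library for all 9 tested class II genes, also had the fewest reads, 3941381, and the highest mitochondrial share, 6.15% of reads against 3.96 and 3.27% in replicates 2 and 3; the intima libraries had 2.30 and 1.38%. The part of these cells and of library quality in the class II values was not tested.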

How the data were processed

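RNA of sorted cells was copied with the SMARTer Ultra Low kit, its ligated fragments were amplified over 12 PCR cycles and they were sequenced as single reads of 50 bases, per the labels' protocols. The submitters' processing notes name GRCm38, STAR 2.0.4b, Subread and featureCounts 1.4.5; annotation release and strand setting are not given in the sources used here. Deposited counts are whole numbers of reads for each gene. The CPM and RPKM values of the authors were met by a recomputation from the counts and the lengths given (0 mismatches at a tolerance of 1e-06). Reference symbols matched 40254 of 41388 IDs. The 1134 others took 0.148 to 0.228% of reads.

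Counts were tested with edgeR 4.0.16 in R 4.3.3 (glmQLFit, glmQLFTest) over 13408 genes kept by filterByExpr (minimum count 10, minimum total 15), with TMM factors and Benjamini-Hochberg adjustment. The SE of a log2 difference is its size over the square root of F. Values by library are deposited CPM, and log2 differences use TMM scaling. Single values were tested by exact permutation over libraries. Alternatives were other scalings and filters, DESeq2 1.42.0, limma 3.58.1 voom, thinned counts, a replicate block and each library left out. On simulated counts for this comparison, with 12410 genes tested, edgeR found 8% of the genes given a 4-fold change, and 48, 72 and 74% of those given 16-, 64- and 256-fold changes, with 0 false calls among 101. Amplified reads carry no molecular identifiers and are not independent, so intervals and floors of 3 reads describe counting error alone. Ratios used exonic lengths of the files, and RefSeq windows and GENCODE M21 transcripts, both GRCm38, gave sequences. Python 3.11.15, pandas 2.3.3, scipy 1.17.1 and matplotlib 3.10.9 were used.

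The 10 genes and all lists were chosen with earlier results of these data known. Named genes were the 10, H2-Ob and H2-Ea, the sort markers and Apoe, every called gene and the 3 largest differences of each pathway list, and the 8 genes nearest in profile (average log2 CPM of at least 4, no predicted-gene or clone name). Marker lists were given by summed level and genes at 0; Ighm, Zbtb46, Cd209a and the other marker genes named with values or ranges were singled out after their values were seen.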

Additional observations from a re-analysis of the deposited data

How the results depend on the processing

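Of 134 single-gene values under alternatives 123 kept their direction and their side of the threshold, 6 passed it and 5 turned sign. The number of class II genes called was 0 with edgeR and became 3 with every gene that had a read (Cd74, H2-Ab1 and H2-DMb1), 1 with DESeq2 (Ciita), 1 with limma voom (Cd74) and 0 to 1 when 1 library was left out (Ciita, without intima replicate 1); in each case the gene was lower in the adventitia. The median over the 9 genes stayed between -1.66 and -0.996. The H2-Aa difference turned to -0.036 with every gene that had a read and ran from -0.33 to 0.80 when 1 library was left out; H2-DMb2 ran from -2.91 to 4.24. Among ratios, H2-DMb2/H2-DMb1 ran from -2.25 to 5.12 and H2-DMa/H2-Ab1 from -0.36 to 0.22 on the log2 scale. The cause of these turns was not tested. With the added reads left out, no ratio of 8 changed direction; H2-Eb2/H2-Eb1 could not be computed so, and H2-DMb2 gave no value with 1 CPM in every library of a group.

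Over all genes the 90 calls became 386 with every gene that had a read, 396 with 1 CPM in every library of a group, 1180 with DESeq2, 839 with limma voom, and 10 to 389 when 1 library was left out (10, 52 and 46 without adventitia replicates 1, 2 and 3, and 389 and 136 without intima replicates 1 and 2). TMM put 20 of its calls higher and 70 lower in the adventitia. Upper-quartile factors gave 29 higher and 46 lower, unscaled library sizes 34 and 59, DESeq2 692 and 488, and voom 625 and 214. The all-gene median log2 difference stood at -0.14 under TMM, 0.02 under relative log expression factors, 0.35 under upper-quartile factors, 0.09 for unscaled sizes and 1.86 where every gene with a read was tested.

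The replicate number as a block gave 183 calls over all genes, 0 class II calls and -0.23 for H2-Aa. Deviations of same-numbered libraries correlated at 0.04 and 0.01, and no label ties them, so the main fit did not pair the libraries. The deviations of the intima libraries mirror each other, so this check cannot exclude pairing by replicate number. With an intima library left out, the remaining one was given the spread of the adventitia group. Low read numbers limit what can be said of H2-Eb2, H2-Ea, H2-DMb2, H2-Oa, Rfx5 and Rfxap.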
